A study of Mus musculus with 4 samples.

Results

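The genes described here are the mouse cytochrome P450 genes Cyp3a11, Cyp3a13 and Cyp3a16, compared between the livers of hepatic reductase null mice and of control mice. They were chosen as the probe sets that the array's annotation assigns to 1 of these 3 symbols and to no other gene, which gave 1 probe set for each gene, 3 of the 12422 probe sets in the table. RNA from liver was hybridised to 4 Affymetrix MG_U74Av2 arrays, 2 of hepatic reductase null mice (replicates 7 and 8) and 2 of control mice (replicates 7 and 8, titled WT). The labels used here give no strain, sex, age or allele and name no inducer, so induction by a drug was not measured. They describe pools of RNA from 3 animals of a genotype, whereas both control titles name a mouse. The p-values therefore measure the spread between these arrays, be they pools or animals. The known mouse line of this name lacks the P450 reductase Por in hepatocytes, through a Cre recombinase under the albumin promoter, and other liver cells keep it. No annotated probe set names Por, so the labels were not checked against its level.

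CYP3A enzymes sit in the membrane of the endoplasmic reticulum, where they oxidise many drugs, steroids and bile acids with electrons that Por passes to them from NADPH. Their genes are the classical targets of the pregnane X receptor PXR (Nr1i2), which binds drugs, steroids and bile acids and acts on DNA together with a retinoid X receptor, and they also respond to the related receptor CAR (Nr1i3). Cyp3a11 is the main CYP3A of adult mouse liver, Cyp3a16 is known from fetal and neonatal liver, and Cyp3a13 is made in intestine as well as liver.

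In the RefSeq gene table of GRCm38.p6, chromosome 5 carried 9 protein-coding Cyp3a genes. Cyp3a16 and Cyp3a11 lay in a run of 8 of them, from Cyp3a57 to Cyp3a59, with no protein-coding gene of another family between them, and Cyp3a25 was the next gene after Cyp3a11. Cyp3a13 stood apart, with 121 protein-coding genes between it and that run. Of the 9 genes, 4 had a probe set in the annotation, and the other 5 (Cyp3a41a, Cyp3a41b, Cyp3a44, Cyp3a57 and Cyp3a59) were named by none.

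The 250 bases before the transcription start of each gene are shown because Cyp3a11 was higher in null liver and because nuclear receptors such as PXR bind hexamer half-sites. The sequences are RefSeq's, from GRCm38.p6, and are written 5′ to 3′ on the minus strand, which all 3 genes occupy. Capitals mark the half-sites AGGTCA and AGTTCA, searched on both strands.
Cyp3a11 (chr5:145879855-145880104): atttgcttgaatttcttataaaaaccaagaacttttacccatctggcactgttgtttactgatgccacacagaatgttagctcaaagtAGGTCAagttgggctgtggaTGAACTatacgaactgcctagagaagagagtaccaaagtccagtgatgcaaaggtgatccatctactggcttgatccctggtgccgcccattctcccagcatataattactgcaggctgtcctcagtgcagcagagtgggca
Cyp3a16 (chr5:145469724-145469973): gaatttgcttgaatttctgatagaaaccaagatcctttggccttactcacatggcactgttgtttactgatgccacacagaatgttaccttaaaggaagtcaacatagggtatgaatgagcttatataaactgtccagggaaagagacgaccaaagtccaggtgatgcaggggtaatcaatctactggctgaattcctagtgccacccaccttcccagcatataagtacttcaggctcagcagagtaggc
Cyp3a13 (chr5:137921620-137921869): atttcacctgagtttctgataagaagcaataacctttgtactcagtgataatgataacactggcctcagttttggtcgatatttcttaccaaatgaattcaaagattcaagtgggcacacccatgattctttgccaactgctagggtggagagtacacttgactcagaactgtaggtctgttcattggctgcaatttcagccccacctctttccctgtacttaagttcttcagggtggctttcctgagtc

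The Cyp3a11 window held 2 half-sites, AGGTCA from 162 to 157 bases before the start and TGAACT, the reverse complement of AGTTCA, from 142 to 137 bases before it. The Cyp3a16 and Cyp3a13 windows held 0 with these letters. Among the other Cyp3a genes, Cyp3a25, Cyp3a57 and Cyp3a59 held 2 each, as Cyp3a11 did, and Cyp3a41a, Cyp3a41b and Cyp3a44 held 1 each. Of these other genes only Cyp3a25 had a probe set, and its values are given below. Whether half-sites bear on the changes was not tested. Of 32851 windows of this length in the table, 24.2% held at least 1 such half-site. No Cyp3a window held 2 half-sites as a direct repeat with a gap of 3 or 4 bases or as an everted repeat with a gap of 6 or 8, arrangements to which PXR is known to bind, and at most 0.0244% of all windows held any 1 of these. In pairwise alignment the Cyp3a11 and Cyp3a16 windows were identical at 83.3% of 239 aligned bases. Cyp3a11 and Cyp3a13 were identical at 64.4% of 225, and Cyp3a16 and Cyp3a13 at 61.4% of 233. The Cyp3a16 window was closer to that of Cyp3a44 (95.9%), which no probe set names.

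Cyp3a11 was higher in null liver, Cyp3a16 had higher signals on both null arrays but missed the threshold, and Cyp3a13 differed by less than the spread between replicates. Of the 3 probe sets, 1 was higher at an adjusted p under 0.05 in limma, beside 0.304% of the 7241 probe sets tested. The arrays of the genotypes did not overlap for 2 of the 3, both higher in null liver, beside 20.4% of all tested probe sets. Liver RNA was measured in bulk, so a change in the number of cells of a type and a change in RNA per cell cannot be told apart.

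Cyp3a11, on the probe set 93770_at, gave signals of 4795.9 and 5293.3 on null replicates 7 and 8, against 2789.5 and 2973.9 on control replicates 7 and 8. Both null arrays lay above both control arrays, and each null array exceeded each control array by 1.61-fold to 1.90-fold, while the replicates of a genotype differed by 1.10-fold in null liver and 1.07-fold in control liver. Signals averaged 5045 ± 352 in null liver and 2882 ± 130.4 in control liver (SD, n = 2 each). The log2 change of null over control was 0.81 ± 0.08 (SE), a 1.75-fold rise with a 95% interval of 1.54 to 1.99, and it passed in limma (adjusted p = 0.021), the seventh smallest p among the tested probe sets. The change stayed between 0.74 and 0.88 under every alternative tried. In limma the call did not survive leaving out null replicate 8 (adjusted p = 0.0681), control replicate 7 (0.15) or control replicate 8 (0.0888), and it also ended with a higher floor for dim signals (0.118), without the filter on dim probe sets (0.286) and without the intensity trend of the variances (0.351). Of the 12 probe sets named here that passed in limma, 1 (a Gstm3 probe set) still passed with the higher floor, and 0 passed without the filter or without the trend, with an adjusted p of 0.154 to 0.343 and 0.193 to 0.351 in these.

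**Figure D1:**
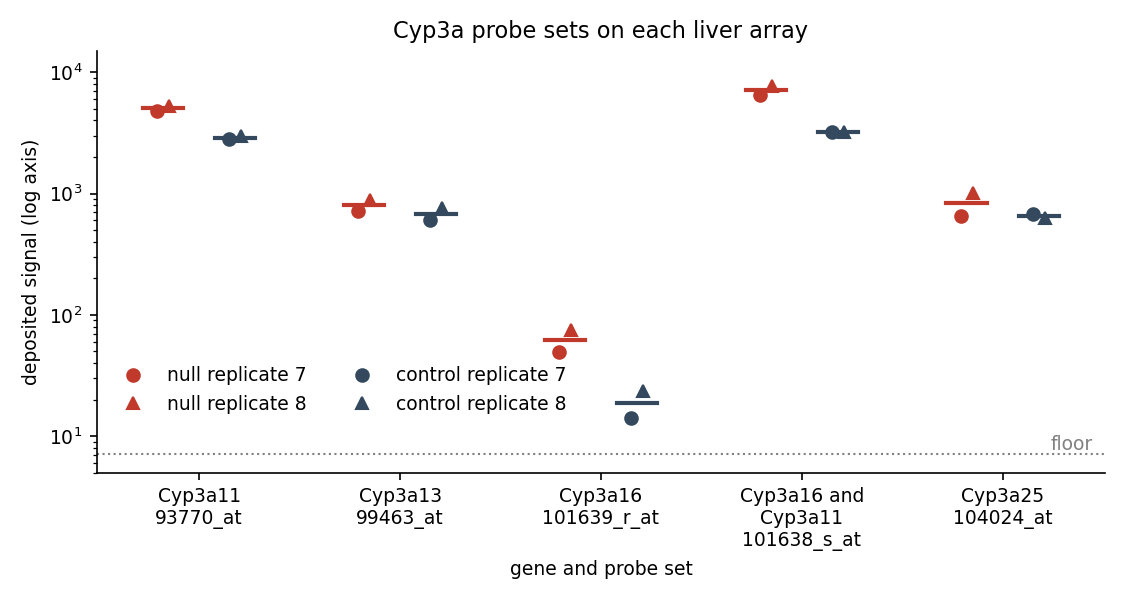
Deposited signal (log axis) of each Cyp3a probe set on the null arrays (red, left) and control arrays (dark, right), with circles for replicate 7, triangles for replicate 8, bars for the group means and a dotted line at the floor of 7.1. The arrays of the genotypes are apart for Cyp3a11, Cyp3a16 and the shared probe set and overlap for Cyp3a13 and Cyp3a25. Heights of different probe sets are not comparable with each other.

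A second probe set, 101638_s_at, is annotated to both Cyp3a16 and Cyp3a11 and so is no member. Its suffix marks probes that match several transcripts. It gave 6504.6 and 7653.7 on the null arrays, against 3203.8 and 3209.7 on the control arrays, again without overlap. The log2 change was 1.14 ± 0.09 (SE), a 2.20-fold rise with a 95% interval of 1.90 to 2.55 (limma adjusted p = 0.00745). The call ended without control replicate 7 (0.0544) or control replicate 8 (0.0521), with the higher floor (0.108), without the filter (0.272) and without the intensity trend (0.315), and the change lay between 1.02 and 1.26 under all alternatives. How the 2 transcripts, or other Cyp3a transcripts with no probe set of their own, share in this signal was not tested.

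Cyp3a16, on 101639_r_at, was dim. It gave signals of 49.1 and 75.2 on the null arrays, against 14.1 and 23.6 on the control arrays, where the floor was 7.1 and the filter on the mean signal stood at 16.8. Both null arrays lay above both control arrays, and the replicates of a genotype differed by 1.53-fold in null liver and 1.67-fold in control liver. The log2 change was 1.74 ± 0.38 (SE), a 3.33-fold difference with a 95% interval of 1.78 to 6.25, and it did not pass in limma (adjusted p = 0.135, unadjusted p = 0.00284). It ranged from 1.16 with 16 added to each signal in place of a floor to 2.11 without control replicate 8, and passed under none of the 13 alternatives that could be run for it. The suffix _r_at marks a probe set designed under relaxed rules, so related Cyp3a transcripts may bind to it, and it was designed on the same cDNA as the shared probe set.

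Cyp3a13, on 99463_at, gave 723.7 and 886.4 on the null arrays, against 603.2 and 756.2 on the control arrays. The genotypes overlapped, since null replicate 7 lay below control replicate 8. Signals averaged 805.1 ± 115 in null liver and 679.7 ± 108 in control liver (SD, n = 2 each). The log2 change was 0.25 ± 0.15 (SE) and did not pass (limma adjusted p = 0.56). Its 95% interval ran from 0.92-fold to 1.52-fold. The difference between the changes of Cyp3a11 and Cyp3a13 was not tested. The change was 0.08 without control replicate 7 and 0.41 without control replicate 8.

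Cyp3a25, the neighbour of Cyp3a11 and an adult liver CYP3A, gave 654.1 and 1004.1 on the null arrays, against 682.7 and 629.7 on the control arrays. Null replicate 8 stood above the other 3 arrays, and null replicate 7 lay between the control arrays. The log2 change of 0.31 ± 0.20 (SE) did not pass (limma adjusted p = 0.574) and was -0.0034 without null replicate 8. The plot of change against signal shows Cyp3a13 and Cyp3a25 close to each other, apart from the Cyp3a11 and shared probe sets.

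**Figure D2:**
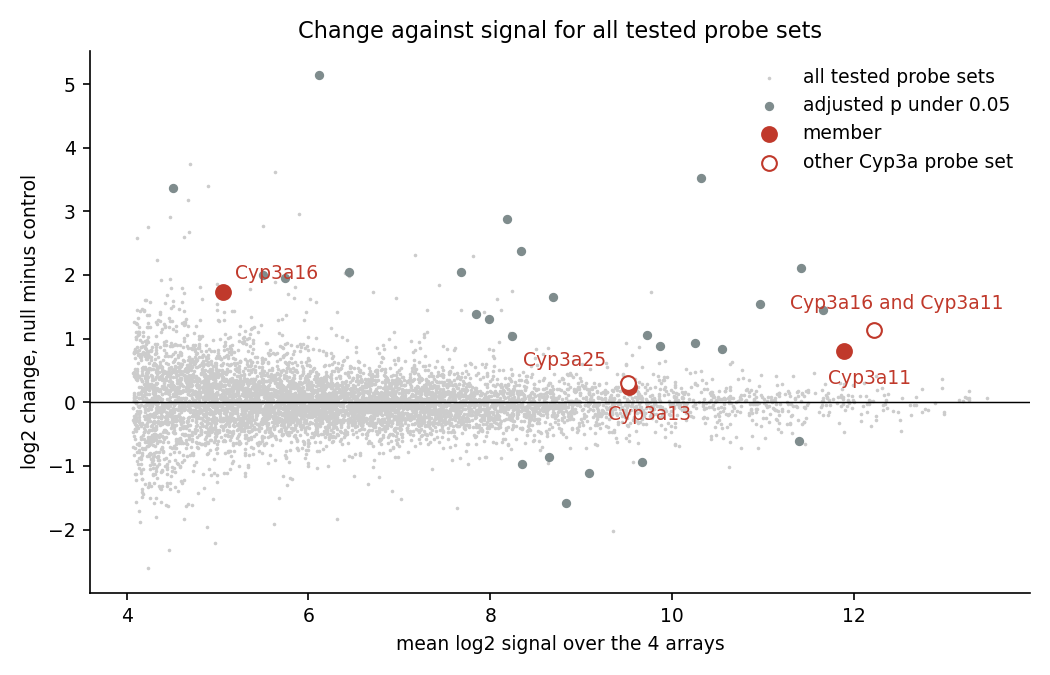
Log2 change of null over control against the mean log2 signal of the 4 arrays for all 7241 tested probe sets (grey), with those at an adjusted p under 0.05 in darker grey, the members as filled red points and the other Cyp3a probe sets as open red points. Cyp3a11 (0.81) and the shared probe set (1.14) lie at high signal, whereas Cyp3a16 (1.74) lies at low signal, where the spread is wide.

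The receptors that act on these genes did not pass the test in either direction. Of 12 tested receptors and partner factors, 0 passed in limma, with 0 higher and 3 lower at an unadjusted p under 0.05, beside 6.16% of all tested probe sets that were higher and 6.46% that were lower at this p. Their median log2 change was -0.24, beside -0.01 over 5510 tested genes. On 7 of the 12 both null arrays lay below both control arrays, beside 23.4% of all tested probe sets. PXR (Nr1i2) gave 57.2 and 91.7 on the null arrays, against 90.4 and 79.3 on the control arrays. The null arrays enclosed the control arrays, and the log2 change was -0.23 ± 0.26 (SE; adjusted p = 0.767), with 0.12 without null replicate 7. CAR (Nr1i3) gave 390.6 and 376.1 on the null arrays and 457.6 and 436.1 on the control arrays on its brightest probe set (-0.22 ± 0.11), which can also bind related transcripts, and its 2 other probe sets were at 0.08 and -0.18. Rxra, the retinoid X receptor most used in liver, was at 0.37 ± 0.20 on its brightest probe set and at 0.19 on another, with overlapping arrays on the second.

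The 3 at an unadjusted p under 0.05 were Cebpa, Rxrb and Nr0b2. The liver transcription factor Cebpa was at 2538.3 and 2473.7 on the null arrays, against 3178.9 and 3065.3 on the control arrays, a log2 change of -0.32 ± 0.07 (adjusted p = 0.141). Rxrb, another retinoid X receptor, was at 139.9 and 124.3 on the null arrays, against 197.5 and 180.1 on the control arrays (-0.52 ± 0.15, adjusted p = 0.249). Nr0b2, a corepressor that can bind PXR, was at 64.4 and 10 on the null arrays, against 100 and 91.2 on the control arrays (-1.91 ± 0.76, adjusted p = 0.365), and this change was -0.57 without null replicate 8 (0.436) and -3.26 without null replicate 7, where it passed (0.0479).

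Among other genes known as targets of PXR and CAR, Cyp2b10 and Gstm3 rose. Of 14 tested, 2 rose, 0 fell and 12 did not pass in limma, beside 0.304% of all tested probe sets higher and 0.0829% lower. At an unadjusted p under 0.05, 11 were higher and 0 lower, beside 6.16% and 6.46% of all tested probe sets. Their median log2 change was 0.60, against the 0.81 of Cyp3a11, and 11 of the 14 had null arrays above both control arrays, beside 20.4% of all tested probe sets. This list was chosen with earlier results of these data known, so its counts are no independent test. It also counts the related transferases Gstm1, Gstm2 and Gstm3 as separate genes. Cyp2b10, the classical CAR target, gave 265.8 and 638.3 on the null arrays, against 3.1 and 19.3 on the control arrays, of which the first lay below the floor. Its log2 change of 5.14 ± 0.55 passed (limma adjusted p = 0.0253), but not without null replicate 7 (0.0743) or null replicate 8 (0.168). The size depends on the floor, at 5.74 with the floor at the 10th percentile of signals (adjusted p = 0.0575), 4.52 at the 40th (0.114) and 4.05 with 16 added to each signal (0.0229). The glutathione transferase Gstm3 gave 4859.7 and 6620.7 on the null arrays, against 1321.9 and 1303.7 on the control arrays, a log2 rise of 2.11 ± 0.14 (limma adjusted p = 0.00437) on a probe set that can bind related transferases, and passed with any 1 array left out (adjusted p of 0.0247 or less). It did not pass with the higher floor (0.0676), without the filter (0.251) or without the intensity trend (0.252). Its other probe set was at 3.53 (adjusted p = 0.000655), and missed the threshold without the filter (0.158) and without the trend (0.193). The conjugate exporter Abcc3 gave 1231.4 and 1195.3 on the null arrays, against 746 and 805.8 on the control arrays (0.65 ± 0.09, adjusted p = 0.0551), and the transferase Gstm1 was at 0.37 ± 0.06 (0.0759), with another probe set at -0.11.

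**Figure D3:**
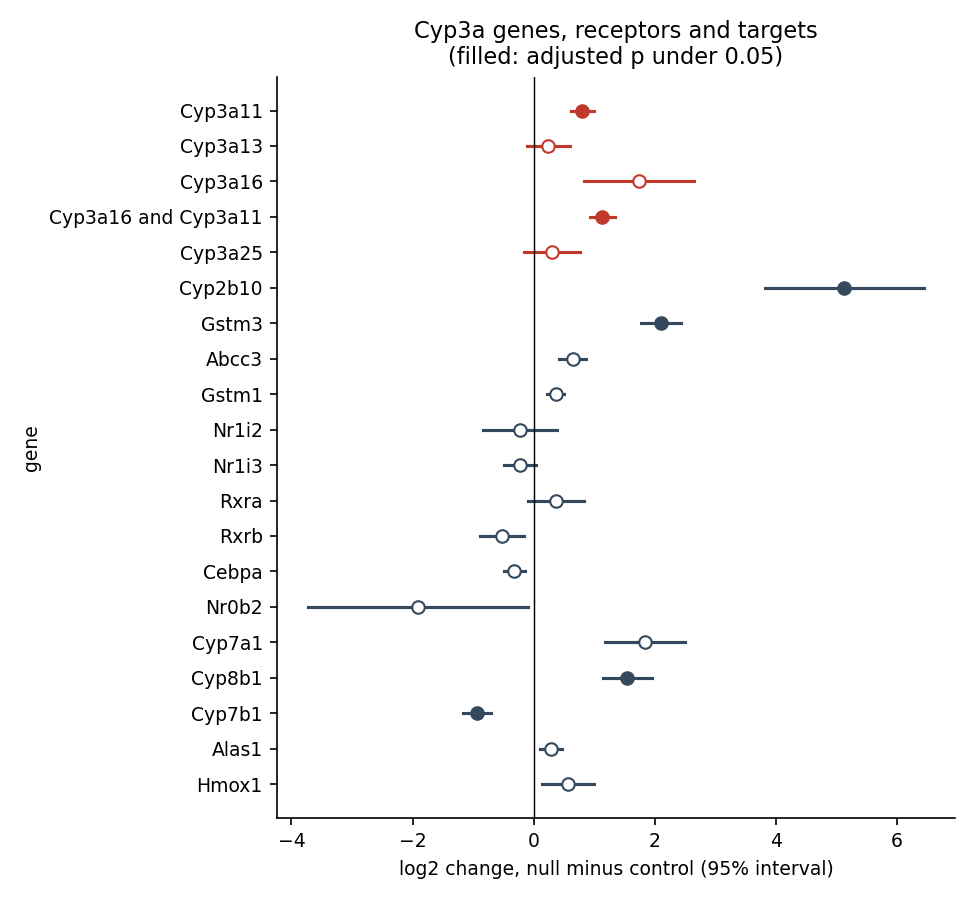
Log2 change of null over control with its 95% interval for the 5 Cyp3a probe sets (red) and for named receptors, targets, bile acid and haem genes (dark), with filled points for an adjusted p under 0.05. Cyp3a11 and the shared probe set lie above 0 with narrow intervals, while PXR (Nr1i2) and CAR (Nr1i3) have intervals that include 0.

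P450 enzymes need haem and electron donors. Of 15 tested genes of haem metabolism and electron supply, 0 passed in limma, with 2 higher and 1 lower at an unadjusted p under 0.05, beside 6.16% and 6.46% of all tested probe sets, and a median log2 change of 0.13. Alas1, which starts haem synthesis, is also counted among the PXR and CAR targets above, so the lists share it. It gave 2629.6 and 2602 on the null arrays, against 2220.7 and 2060.5 on the control arrays (0.29 ± 0.08, limma adjusted p = 0.204). The haem-degrading Hmox1 was at 0.56 ± 0.18. The haem synthesis enzymes Uros and Urod were at 0.57 ± 0.24 and -0.38 ± 0.12 (log2, SE).

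Bile acids are both ligands of PXR and substrates of CYP3A enzymes, and the genes that make and carry them went in both directions. Of 10 tested, 1 rose, 1 fell and 8 did not pass, beside 0.304% of all tested probe sets that were higher and 0.0829% that were lower. Their median log2 change was -0.06. Cyp8b1, the sterol 12-hydroxylase of bile acid synthesis, gave 3352.2 and 3508.9 on the null arrays, against 967 and 1425.9 on the control arrays, and rose by 1.55 ± 0.17 (limma adjusted p = 0.0261). Cyp7b1, of the alternative pathway, gave 569.9 and 603.4 on the null arrays, against 1101.2 and 1146.3 on the control arrays, and fell by 0.94 on the log2 scale (adjusted p = 0.021). In limma, Cyp8b1 did not pass when null replicate 7 (adjusted p = 0.105) or 8 (0.203) was left out, and the Cyp7b1 call ended without null replicate 7 (0.0721), null replicate 8 (0.0681), control replicate 7 (0.15) or control replicate 8 (0.126). A second Cyp7b1 probe set was also lower, at -1.11 (adjusted p = 0.0322), and it did not pass with any 1 array left out (0.0702 to 0.212). Cyp7a1, which starts the classical pathway, was at 1.84 ± 0.27 (limma adjusted p = 0.0605), and Slc27a5, a bile acid ligase, at -0.57 ± 0.15 (0.205). Cyp7a1 passed with the filter at the 60th percentile (0.0348), after quantile normalization (0.0434) and with equal medians (0.043). It did not pass with the higher floor (0.191), without the filter (0.392) or without the intensity trend (0.348). With 1 array left out its change was 1.41 to 2.27. The plot of changes by list shows these genes on both sides of 0, while nearly all PXR and CAR targets lie to its right.

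**Figure D4:**
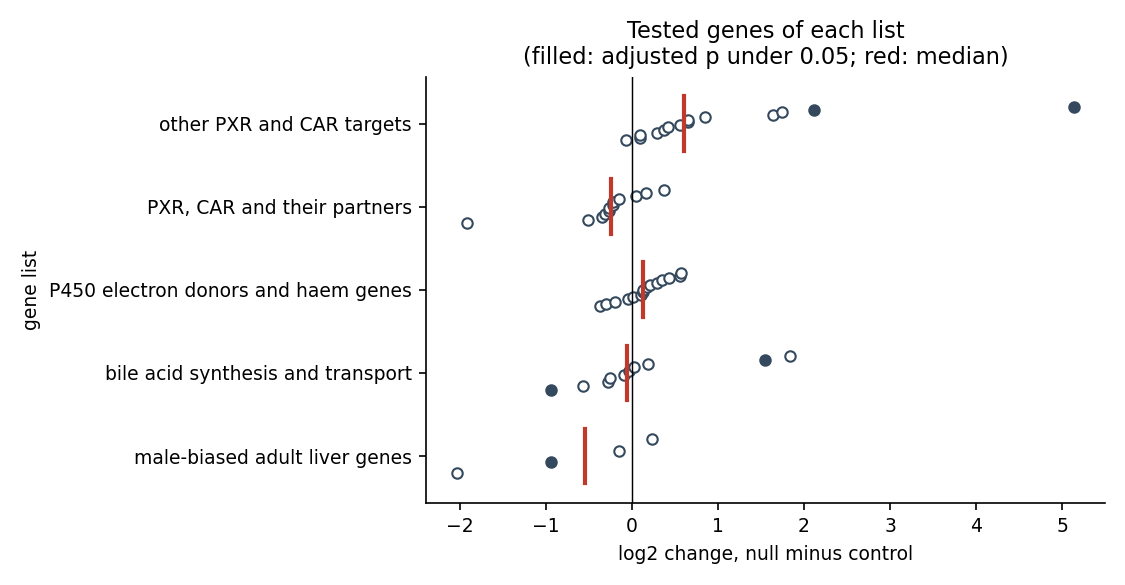
Log2 change of null over control for each tested gene of 5 lists, on its brightest probe set, with filled points for an adjusted p under 0.05 and a red bar at the list's median. The medians were 0.60 for the other PXR and CAR targets, -0.24 for the receptors and partners, 0.13 for electron donors and haem genes, -0.06 for bile acid genes and -0.54 for male-biased genes.

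Several mouse Cyp3a genes depend on sex or age, so genes of these kinds were read beside Cyp3a16. Of the other fetal liver genes, Gpc3 gave 26.9 and 23.9 on the null arrays, against 27.8 and 18.3 on the control arrays, and Dlk1 gave 25 and 28.5 on the null arrays, against 20.9 and 33.8 on the control arrays, with overlapping arrays for both. Igf2 and Afp, also fetal, were under the filter. The 3 measured female-biased genes (Cyp2b9, Cyp2b13 and Cux2) were under the filter too, with signals that summed to 8.3 and 26.4 on the null arrays and 10.9 and 7.6 on the control arrays. Of 4 tested male-biased genes 0 rose and 1 fell, beside 0.304% and 0.0829% of all tested probe sets, and their median was -0.54. The 1 that fell was Cyp7b1, also counted among the bile acid genes. Hsd3b5, a male liver steroid dehydrogenase, was at 528.7 and 196.5 on the null arrays, against 1401 and 1237.8 on the control arrays (-2.03 ± 0.40, adjusted p = 0.101). Its change was -2.75 without null replicate 7, where it passed (0.00924), and -1.32 without null replicate 8 (0.0522). Elovl3, a fatty acid elongase, was at 0.23 ± 0.27, and Cyp2d9, a male-biased P450, at -0.15 ± 0.45.

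Among 6509 other tested probe sets with 1 gene name, the 5 nearest to Cyp3a11 were found by the Euclidean distance of log2 signals, centred on their mean, over the 4 arrays. They were Tmem176a (distance 0.0474), Ptdss2 (0.0531), Gpx4 (0.0872), Krt8 (0.088) and Csrp1 (0.0924). Tmem176a, a membrane protein gene, gave 1877.4 and 2134.1 on the null arrays, against 1104.1 and 1146.1 on the control arrays, and rose by 0.83 ± 0.10 (limma adjusted p = 0.0289). The hepatocyte keratin Krt8 gave 1205.8 and 1330 on the null arrays, against 672.2 and 695.4 on the control arrays, and rose by 0.89 ± 0.10 (adjusted p = 0.0261). Neither call held in limma with any 1 of the 4 arrays left out. Without null replicates 7 and 8 and control replicates 7 and 8 in turn, the adjusted p was 0.0557, 0.118, 0.206 and 0.126 for Tmem176a and 0.0702, 0.118, 0.185 and 0.12 for Krt8. The lipid peroxide-reducing Gpx4 was at 0.84 ± 0.12 (adjusted p = 0.0551), the phosphatidylserine synthase Ptdss2 at 0.84 ± 0.27 and the LIM protein gene Csrp1 at 0.74 ± 0.22, and these 3 did not pass.

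The 5 nearest to Cyp3a16 were Npdc1 (distance 0.157), Nfkbie (0.215), the CAR and PXR target Cyp2c29 (0.292), the phospholipase gene Pla2g12a (0.313) and the collagen gene Col1a1 (0.382). Of these 5, 0 passed in limma, beside 0.304% of all tested probe sets that were higher. Cyp2c29 gave 202.8 and 239 on the null arrays, against 52.5 and 94.5 on the control arrays (1.64 ± 0.28, adjusted p = 0.0803), and it passed without control replicate 8 (0.0371). Col1a1 gave 75.5 and 153.6 on the null arrays, against 26.7 and 35.4 on the control arrays (1.81 ± 0.36, adjusted p = 0.101). Npdc1 and Nfkbie had signals of 8.9 to 16.3 on the control arrays, near the floor, and Pla2g12a had 16.6 and 29.5 there. Pla2g12a was at 1.43 on this probe set and at 0.86 on a brighter one (limma adjusted p = 0.137). With 4 arrays of 2 genotypes, such a distance takes in the genotype difference and the differences between replicates together. The genes nearest to Cyp3a11 and to Cyp3a16 were chosen by likeness to genes with higher null signals. Their own higher null signals therefore follow from that choice.

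The values of other cell types beside these changes were as follows. Hepatocyte markers were present on every array, and 0 of 8 passed in limma, with 0 higher and 3 lower at an unadjusted p under 0.05. For this and the marker counts that follow, the shares of all tested probe sets at that p were 6.16% higher and 6.46% lower. The shares that passed in limma were 0.304% higher and 0.0829% lower. Signals of the hepatocyte markers summed to 40418.2 and 38526.1 on the null arrays and 41073.9 and 40870.4 on the control arrays. Such sums weigh the brightest probe sets most, here Alb and Apoa1, and the 3 lower markers were Tdo2, Ttr and Fgb. Of 13 macrophage markers 2 rose, Mpeg1 (1.38 ± 0.14, adjusted p = 0.021) and Mmp12 (adjusted p = 0.0377), which are named because they passed, and 5 were higher and 0 lower at an unadjusted p under 0.05. On 10 of the 13 both null arrays lay above both control arrays, beside 20.4% of all tested probe sets, and the median log2 change was 0.28. Another Mmp12 probe set, at 2.58, did not pass (limma adjusted p = 0.102). The one that passed, with the suffix _r_at, gave 55.7 and 96.9 on the null arrays, against 5.7 and 2.5 on the control arrays. Both control signals lay under the floor, so its log2 change was set by it, at 3.37 with the floor of 7.1, 2.13 with the floor at the 40th percentile and 2.17 with 16 added. Without any 1 of null replicates 7 and 8 and control replicates 7 and 8 neither passed, with an adjusted p of 0.07 to 0.118 for Mpeg1 and 0.0819 to 0.266 for Mmp12 in limma. The macrophage markers summed to 3113.1 and 3431.3 on the null arrays and 2459.3 and 2436.2 on the control arrays. Of 9 stellate cell markers 0 passed, with 5 higher and 0 lower at an unadjusted p under 0.05. On 5 of the 9 both null arrays lay above both control arrays, and the median log2 change was 0.39. Col1a2 was counted on its brightest probe set, at 0.12, and was at 1.45 on another (limma adjusted p = 0.146). The stellate cell markers summed to 1511.9 and 1785.2 in null liver and 1136.3 and 1202.2 in control liver, mostly from Dcn. Of 7 tested endothelial and 5 B and plasma cell markers, 0 passed, with 0 endothelial and 1 B cell marker at an unadjusted p under 0.05. Endothelial sums were 1125.1 to 1221.4 in null liver and 1026.5 to 1037 in control liver, and B and plasma cell sums were 183.2 to 233.4 in null liver and 180.7 to 197 in control liver. Enterocyte markers, read because intestine also makes Cyp3a13, summed to 2682.6 to 2701 in null liver and 2973.5 to 3084.2 in control liver, mostly from Apob, which hepatocytes make too, with Vil1 at or below the floor on every array. Of their 4 tested genes 0 passed, with 1 lower at an unadjusted p under 0.05. The 4 cholangiocyte markers were under the filter, with Epcam at or below the floor on every array.

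Pancreatic acinar markers stood out on 1 array. They summed to 2982.4 on null replicate 7 and 238.5 on null replicate 8, against 272.7 and 386 on the control arrays, and 0 of 6 passed in limma, with 0 at an unadjusted p under 0.05. Without null replicate 7, which gave the lower null signal for both genes, the log2 change was 0.88 for Cyp3a11 and 2.04 for Cyp3a16. The part that pancreatic, macrophage and stellate cell content plays in the Cyp3a changes was not tested.

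**Figure D5:**
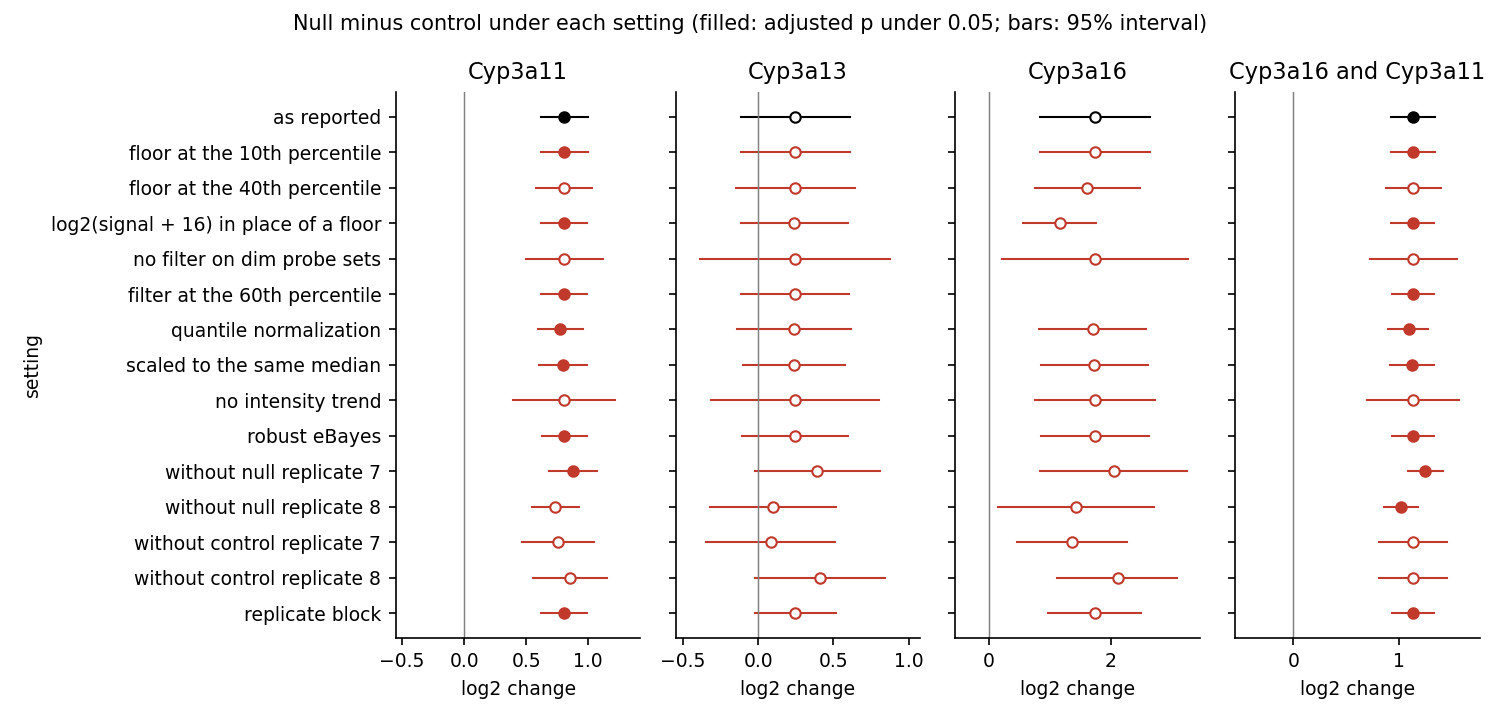
Log2 change of null over control with its 95% interval for each member and for the shared probe set under every setting, with filled points for an adjusted p under 0.05. Points of Cyp3a11 stay between 0.74 and 0.88 while several of them are open, those of Cyp3a16 are open throughout, and a setting without a point left the probe set untested.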

How the data were processed

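Liver RNA was analysed on 4 arrays. The authors deposited a linear intensity for each probe set, which per the labels' protocols came from GCOS software using perfect-match and mismatch probes, with every chip scaled to its total fluorescence. The software version is not given in the sources used here. No further scaling was applied, since the 2% trimmed mean was 100.1 throughout. Signals under 7.1 (the 25th percentile) were set to it, log2 was taken, and the test took probe sets whose mean log2 exceeded that of a signal of 16.8 (40th percentile), which were 7241 of 12422, without the 66 manufacturer's controls. The floor understates changes of dim genes. Symbols of the platform annotation were updated to GRCm38.p6 (10817 matched).

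The test was limma 3.58.1 (R 4.3.3; lmFit and a trended eBayes), two-sided, genotype only, Benjamini-Hochberg adjusted over the 7241 at 0.05. It called 22 higher and 6 lower in null liver. Its variance had 2 residual and 4.78 pooled degrees of freedom, and the number of arrays limits the precision. An exact permutation test cannot go below p = 0.333 and was not used. Steps were tested on simulated data. The labels give no batch. Promoters were aligned with Biopython 1.88.

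Named genes were all Cyp3a probe sets, up to 4 of smallest p in each list, chosen receptors and targets, and the 5 nearest in pattern to Cyp3a11 and to Cyp3a16. Macrophage markers and second probe sets that passed were named after their values were seen. Members and lists were chosen with earlier results of these data known.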

Additional observations from a re-analysis of the deposited data

How the results depend on the processing

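Cyp3a11 kept its direction under all 14 alternatives and passed under 8 of them, Cyp3a13 passed under 0 of 14 and Cyp3a16 under 0 of 13 in limma. Under the filter at the 60th percentile Cyp3a16 was not tested. The floor at the 40th percentile left 1 higher and 0 lower probe sets and 0 of the 3 members called, with Cyp3a11 still at 0.81. No filter on dim probe sets and no intensity trend each left 0 higher, 0 lower and 0 members called, again with Cyp3a11 at 0.81. The 95% interval of Cyp3a11 was wider there, 0.58 to 1.03, 0.50 to 1.12 and 0.40 to 1.22 in the same order. Lower probe sets numbered 15 with the filter at the 60th percentile, 12 after quantile normalization and 13 with robust eBayes, against 6. With 1 array left out, 10 to 13 probe sets were higher, 0 to 4 were lower, 0 to 1 members were called and Cyp3a11 was at 0.74 to 0.88. A lone array is then assumed to vary like the other genotype's pair. Over the same 4 fits Cyp3a25 ranged from -0.0034 to 0.61, Nr1i2 from -0.57 to 0.12, Gpc3 from -0.13 to 0.47, Dlk1 from -0.34 to 0.35 and Cyp2d9 from -0.86 to 0.56. Dlk1, at 0.0062 as reported, was at -0.0052 with 16 added to each signal, -0.075 after quantile normalization and -0.0031 with equal medians. The causes were not tested beyond what the settings' construction shows.

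Replicate numbers 7 and 8 are shared by both genotypes. The deviations of same-numbered arrays from their group means were uncorrelated (r = -0.030 over 7241 probe sets). With 2 arrays per genotype and no batch in the labels, this cannot settle whether same-numbered arrays shared a handling step. With a replicate block 37 probe sets were higher and 15 lower, with Cyp3a11 at adjusted p = 0.0116, Cyp3a16 at 0.0816 and Cyp3a13 at 0.465 in limma.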
